A study of Mus musculus with 16 samples.

Results

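Glutathione, thioredoxin and NRF2 target genes form the cell's main thiol-based defence against oxidants, and 50 of them were followed here through the lung and liver transcriptomes of newborn *Man1a2* mutant pups. The genes were chosen by name, as the enzymes that make, use and recycle glutathione and thioredoxin, the superoxide dismutases and catalase, and the transcription factor NRF2 with its inhibitor and targets. All 50 symbols were found, each on a single row, among the 25054 gene rows of the count table. Glutathione is built from glutamate, cysteine and glycine, its supply is limited by cysteine and by the first enzyme of the path, and it serves peroxidases and transferases before glutathione reductase restores it. NRF2, encoded by *Nfe2l2*, is held back by KEAP1 and, when released by oxidants or electrophiles, binds antioxidant response elements near many of these genes. The liver is a main site of glutathione synthesis and conjugation, and the newborn lung meets a sharp rise in oxygen at birth.

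N-acetylcysteine (NAC), a cysteine donor, or placebo (water) was given to heterozygous *Man1a2* parents of the C57BL/6J background, at up to 1 g/kg body weight for NAC, from a week before mating until the pups were born. *Man1a2* encodes a Golgi mannosidase that trims N-glycans, and the mutant allele lacks exon 2. Of the 4 groups of pups, WT and some heterozygous pups were alive after 24 h, the other heterozygous pups had died, and so had the null pups. Live pups were killed at 24 h whereas dead pups were taken when they died, so that survival, age at harvest and, for null pups, genotype cannot be told apart. RNA of 3 experiments, or of 2 for dead heterozygous pups, was pooled into 1 library per pup group, treatment and tissue, which made 16 libraries with 7236906 to 16107764 counts each. Nothing in the labels says that these experiments were kept as separate samples, so the spread between libraries is that between pools. *Man1a2* counts were deposited per gene and do not separate exon 2, so they do not check genotype: levels in TMM CPM (a gene's share of the library's counts in CPM, rescaled by edgeR's trimmed mean of M values) were 34.3 to 60.3 in the null libraries that held 1 tissue and 29.7 to 75.4 in WT.

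The tissue labels were checked first. *Sftpc*, the surfactant protein gene of alveolar type 2 cells, and *Alb*, the albumin gene of hepatocytes, placed 7 libraries as lung-content (*Sftpc* at 4446 to 11758 raw CPM, *Alb* at 10.5 to 135) and 8 as liver-content (*Alb* at 51003 to 101254, *Sftpc* at 0.0621 to 3.10). The dead null placebo library labelled lung held both, with *Sftpc* at 5553 and *Alb* at 9280, and was left out of the fits reported here. In 8 of the 16 libraries the label named the other tissue, and in 7 it matched. Within lung-content libraries, the placebo libraries of live WT, live heterozygous and dead null pups and the NAC library of dead heterozygous pups were labelled liver. Among liver-content libraries, the placebo libraries of live WT and live heterozygous pups and the NAC library of dead heterozygous pups and 1 of those of dead null pups were labelled lung. Each comparison of NAC with placebo below therefore sets libraries of the same measured content side by side, and in every such pair 1 of the libraries carried the other tissue's label. Whether pup group and treatment labels moved along with the tissue label was not tested, and no pair is left if contradicted libraries are dropped. Lung-content libraries were the shallower, with 7236906 to 11808840 counts against 14115814 to 16107764, and Rn45s, a ribosomal RNA, took 4.05 to 26.2% of their counts against 0.845 to 6.29%.

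Most of the genes stood higher where the liver was. Of the 49 genes that reached a mean of 1 raw CPM, 28 had every liver-content library above every lung-content library, 4 had the reverse, and 17 overlapped. Over all 14175 genes such separation was found in 49.9% (26.3% liver above and 23.6% lung above), so that the 57.1% of these genes with the liver above compares with 26.3%. The median log2 ratio of liver to lung was 1.30 for the 49 genes and 0.09 for all genes. Scaling by library size alone shifted the median of all genes by -0.68 and left 19 genes above in liver, 9 above in lung and 21 overlapping, while the distance of the 49 genes from all genes was 1.20 against 1.21 with TMM. These are descriptions without a test, since the libraries were sorted by measured tissue genes, and in bulk RNA fewer cells of a type cannot be told apart from less RNA per cell. *Gsta1*, an alpha class glutathione transferase, was the gene that did not reach 1 CPM, with at most 1.64 TMM CPM in lung-content and 0.419 in liver-content libraries.

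**Figure D1:**
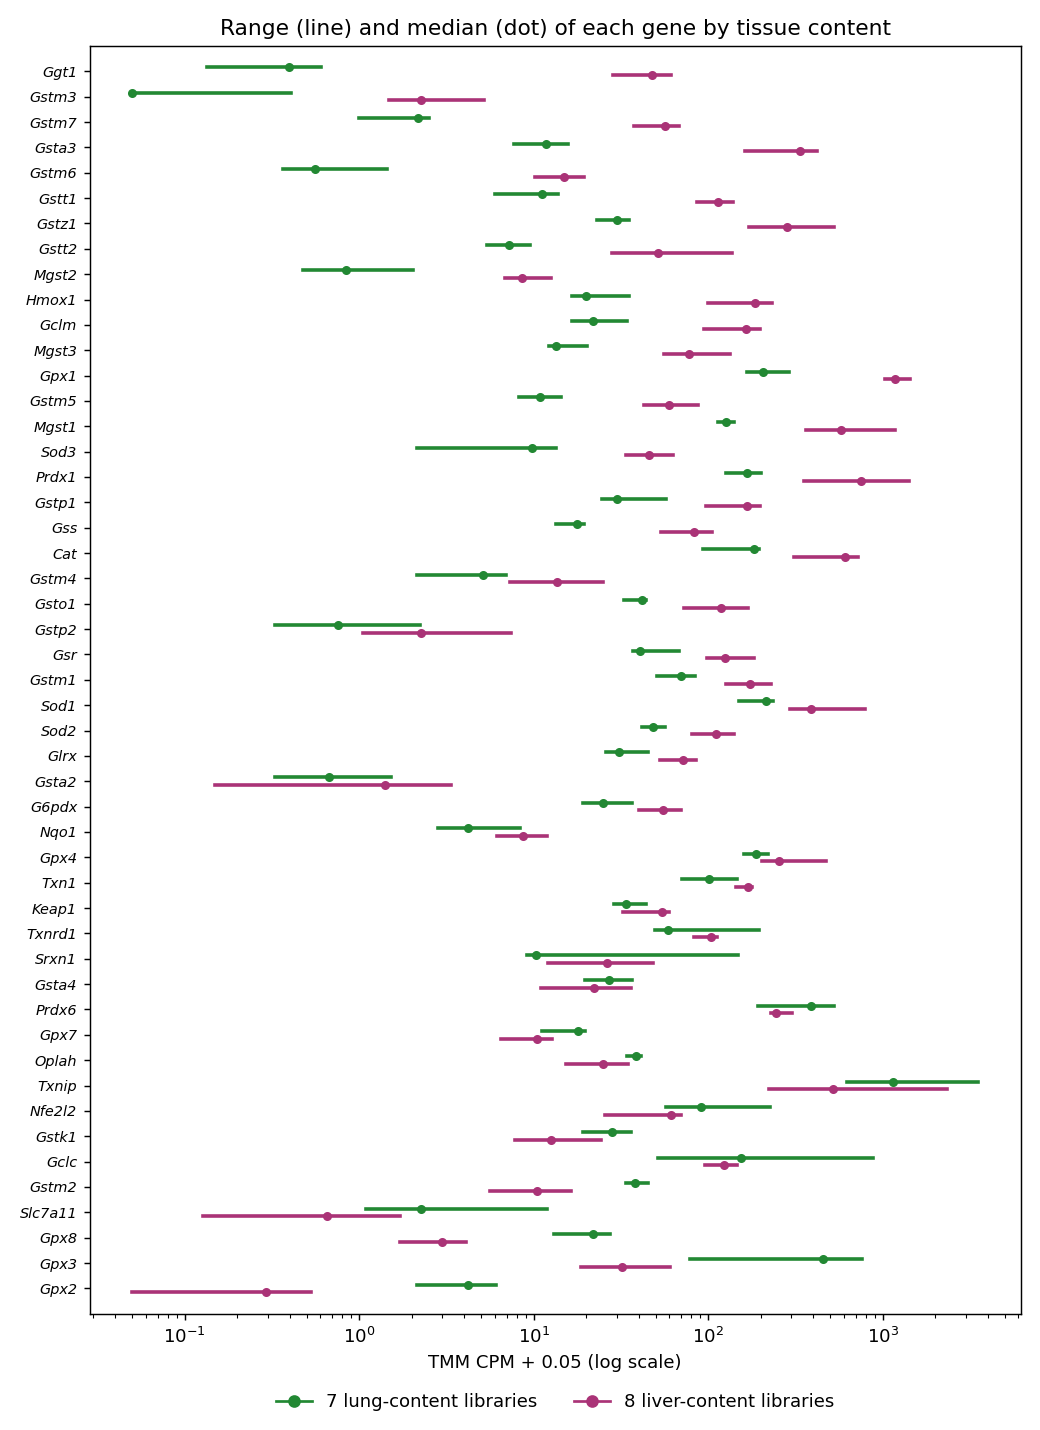
TMM CPM (plus 0.05, log scale) of the 49 genes in 7 lung-content (green) and 8 liver-content (purple) libraries, where each line spans the lowest to the highest library and the dot is the median. From the top, *Ggt1*, *Gstm3* and *Gstm7* are the furthest towards liver, and at the bottom *Gpx2* and *Gpx3* the furthest towards lung.

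The regulators were not among the genes that separated the tissues. *Nfe2l2* (chromosome 2, 75675513 to 75704641, GRCm38) ran from 57.2 over a median of 91.5 to 226 TMM CPM in lung-content libraries and from 25.6 over 61.0 to 69.9 in liver-content libraries. *Keap1*, the adaptor that hands NRF2 to a ubiquitin ligase, had 28.8, 33.9 and 44.0 (lowest, median and highest) in lung and 32.5, 54.4 and 59.9 in liver. For both genes the ranges of the tissues overlapped, with *Nfe2l2* leaning to lung and *Keap1* to liver. Reads of *Keap1* could include those of Gm16754, which overlaps its exons on the other strand, since the use of strand in counting is not given in the sources used here.

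Of the genes of glutathione synthesis and uptake, the subunits of glutamate cysteine ligase behaved differently from each other. *Gclc*, the catalytic subunit and first step of the path, spanned 51.3 to 877 TMM CPM in lung-content libraries, with a median of 154, and only 96.3 to 146, with a median of 123, in liver. By contrast *Gclm*, the modifier subunit, had 16.6, 21.8 and 34.5 in lung and 94.6, 165 and 199 in liver, which did not overlap. *Gss*, glutathione synthetase and the second step, was at 13.4 to 19.3 in lung and 53.9 to 105 in liver. The largest ratio between tissues among the 49 genes belonged to *Ggt1*, the gamma-glutamyl transferase that opens extracellular glutathione, with 0.0848, 0.345 and 0.557 in lung and 28.5, 47.5 and 61.6 in liver, a 149-fold ratio of means that rests on 22 counts in the 7 lung-content libraries. *Slc7a11*, the cystine importer, went the other way, with 1.04, 2.22 and 11.9 in lung and 0.0776, 0.601 and 1.68 in liver, and its ranges overlapped. *Oplah*, which returns 5-oxoproline to glutamate, leaned to lung, at 34.1 to 41.1 against 15.3 to 34.7.

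Among the thiol reductases, *Prdx1*, a peroxiredoxin, had the widest gap, with 127, 168 and 200 TMM CPM in lung-content and 354, 753 and 1411 in liver-content libraries. *Gsr*, glutathione reductase, did not overlap either, at 37.2 to 67.6 in lung and 97.9 to 184 in liver. *Glrx*, a glutaredoxin, and *G6pdx*, which supplies NADPH, were also separated with the liver above, 2.21 and 2.15 times by their means. *Txn1*, *Txnrd1*, *Txnip*, *Srxn1* and *Prdx6* overlapped. Per kilobase of exon, the scale on which genes can be compared with each other, *Txnip*, which encodes a thioredoxin-binding protein, had the highest median in lung (368 CPM per kb) and the glutathione peroxidase gene *Gpx1* the highest in liver (821 CPM per kb).

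Peroxidases held most of the genes that were higher in lung. *Gpx2*, the epithelial form, had 2.09, 4.13 and 6.02 TMM CPM in lung and 0, 0.242 and 0.477 in liver. *Gpx3*, the secreted plasma form, had 79.1, 454 and 758 in lung and 18.6, 32.1 and 60.3 in liver, and *Gpx8*, of the endoplasmic reticulum, 13, 22 and 27.4 against 1.67, 2.95 and 4.05. None of the 3 overlapped between tissues. *Gpx1*, the cytosolic form, was the reverse, at 166 to 289 in lung and 1027 to 1433 in liver, whereas *Gpx4*, which reduces lipid peroxides, and *Gpx7* overlapped.

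Transferases, which join glutathione to electrophiles, were mostly liver genes. *Gstm3* had 0, 0 and 0.355 TMM CPM in lung, on 7 counts in all, and 1.42, 2.22 and 5.18 in liver. *Gstm7* (0.954 to 2.45 against 37.5 to 67.8) and *Gsta3* (7.66 to 15.7 against 162 to 423) were 27.6 and 27.5 times higher in liver by their means. *Gstm2* was the exception with the lung above, at 33.8 to 45.5 against 5.59 to 16.3, and *Gstk1*, *Gsta2*, *Gsta4* and *Gstp2* overlapped. Gsta, Gstm and Gstp genes have near-identical copies, and the study's methods name unique mapping without saying how transcripts of near-identical genes were told apart, so single members of these families are uncertain. *Sod3*, the extracellular superoxide dismutase, had 2.09, 9.77 and 13.4 in lung and 33.7, 45.9 and 62.6 in liver, and *Sod1*, *Sod2* and *Cat* (catalase) were likewise separated. Of the classic NRF2 targets, *Hmox1*, heme oxygenase 1, had 16.4, 19.9 and 35.0 in lung and 99.2, 186 and 234 in liver, and *Nqo1*, a quinone reductase, overlapped at 2.79, 4.15 and 8.26 against 6.14, 8.63 and 11.9.

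NAC against placebo was then compared within lung-content libraries, over the pairs of live WT, live heterozygous and dead heterozygous pups, with pup group as a block in edgeR's quasi-likelihood test. *Gclc*, *Gpx3*, *Prdx6*, *Txnrd1*, *Txn1* and *Gsr* were higher with NAC. These 6 of 49 genes (12.2%) passed a Benjamini-Hochberg adjusted p under 0.05, all of them upward, in a comparison in which 20.4% of 14211 genes passed, 10.5% of them higher and 9.88% lower. The share of these genes called was thus not above that of all genes. Their median log2FC was 0.09, against -0.04 for all genes, and 13 of the 49 genes were higher with NAC in all 3 pairs (26.5%, against 28.2% of all genes) and 6 were lower (12.2%, against 31.3%).

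*Gclc* (chromosome 9, 77754535 to 77794485) went from 73.0 TMM CPM in placebo to 196 in NAC lung of WT pups, from 51.3 to 347 in heterozygous pups that lived, and from 73.7 to 877 in those that died. Its NAC libraries were 2.69, 6.75 and 11.9 times their placebo libraries, all NAC values lay above all placebo values of the pairs, and the dead null placebo library, which has no NAC partner, lay between them at 154. The log2FC was 2.59 (standard error 0.35, adjusted p = 0.00457). In liver-content libraries the corresponding pairs were 124 and 96.3, 130 and 120, and 137 and 112, each lower with NAC.

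The plasma peroxidase gene *Gpx3* (chromosome 11, 54902453 to 54910377) rose from 143 to 719, from 79.1 to 454 and from 262 to 758 TMM CPM in the same order of pairs, a log2FC of 2.13 (standard error 0.28, adjusted p = 0.00439). The dead null placebo library reached 689, inside the range of the NAC libraries. *Prdx6* (chromosome 1, 161240112 to 161251219), a peroxiredoxin that uses glutathione and also acts on phospholipids, stood at 192 and 530, 219 and 459, and 261 and 513 in the same pairs, a log2FC of 1.17 (standard error 0.18, adjusted p = 0.00663). Its dead null placebo library, at 390, was above the other placebo libraries and below the NAC libraries. In dead null placebo lung *Gclc*, *Gpx3* and *Prdx6* were each nearer to the lowest NAC library than to the highest of the other placebo libraries, or within the NAC range.

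Thioredoxin and its reductase moved in the same direction. *Txnrd1* (chromosome 10, 82833951 to 82897712), thioredoxin reductase, had 58.7 and 77.3, 52.2 and 122, and 56.5 and 195 TMM CPM, each pair given as placebo and then NAC. *Txn1* (chromosome 4, 57943373 to 57956411), cytosolic thioredoxin, had 74.8 and 102, 70.9 and 131, and 84.5 and 146, and *Gsr* (chromosome 8, 33652523 to 33698163) had 38.9 and 51.3, 40.5 and 62.5, and 39.1 and 67.6. For each of these genes every NAC library was above every placebo library of the pairs. The dead null placebo library was the lowest lung-content library for *Txnrd1*, at 49.9, and for *Gsr*, at 37.2. For *Txn1* it was inside the range of the NAC libraries, at 105. The log2FC was 1.14 (standard error 0.23, adjusted p = 0.0143) for *Txnrd1*, 0.71 (standard error 0.16, adjusted p = 0.0194) for *Txn1* and 0.60 (standard error 0.16, adjusted p = 0.0276) for *Gsr*. *Txnip* had a log2FC of 1.78 (standard error 0.58) and an adjusted p of 0.0549 and did not pass, with 648 and 2007, 627 and 3531, and 726 and 1694 TMM CPM in the pairs.

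**Figure D2:**
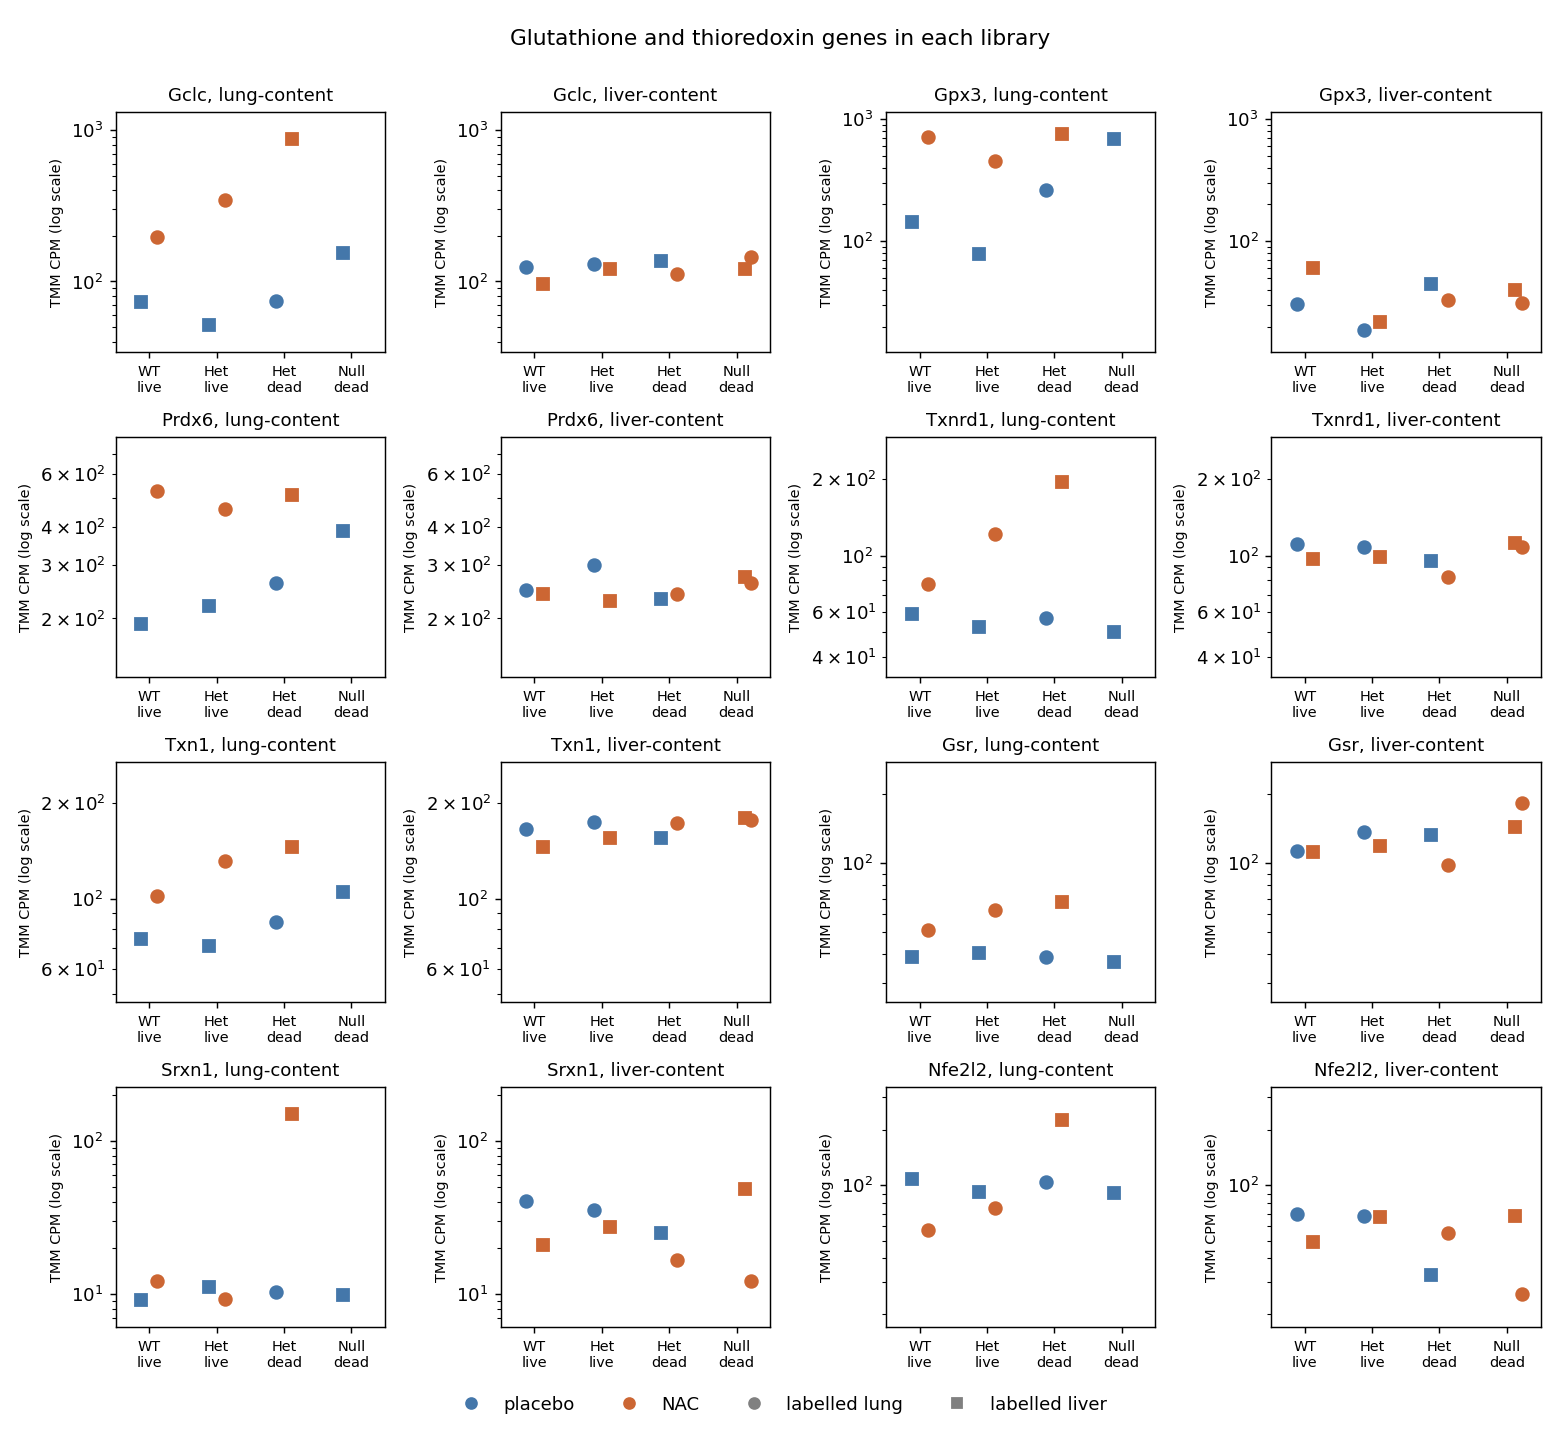
TMM CPM (log scale) of 8 genes in each of the 15 lung-content and liver-content libraries by pup group, with placebo in blue, NAC in orange, circles for libraries labelled lung and squares for those labelled liver. In lung-content libraries the NAC points of *Gclc*, *Gpx3*, *Prdx6*, *Txnrd1*, *Txn1* and *Gsr* lie above the placebo points of the same pup group, and *Srxn1* stands at 149 in 1 library.

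Of the remaining genes, *Ggt1*, *Sod1*, *Sod2*, *Txnip*, *Gstm2*, *Mgst1* and *Gsta4* were also higher with NAC in all 3 pairs without passing the test. *Ggt1* was near the floor, at 0.106 and 0.355, 0.347 and 0.557, and 0.0848 and 0.345 TMM CPM. With 22 counts over the 7 lung-content libraries, its direction is uncertain. *Gclm*, partner of *Gclc*, had 20.5 and 17.6, 21.9 and 16.6, and 22.5 and 34.5 TMM CPM, a log2FC of 0.01 (standard error 0.22). *Nfe2l2* had 107 and 57.2, 91.5 and 75.2, and 104 and 226, lower with NAC in both live groups and higher in dead heterozygous pups, and *Keap1* ran the same way, at 35.0 and 30.4, 34.9 and 28.8, and 33.9 and 44.0. *Nqo1* was 3.71 and 8.26, 3.38 and 2.79, and 4.15 and 4.82, and *Hmox1* was 19.8 and 16.4, 19.9 and 23.8, and 19.6 and 35.0. The direction of these genes differed among the pairs, and none passed the test. *Slc7a11* had 4.56 and 2.22, 1.04 and 1.53, and 1.53 and 11.9, also without a common direction. No transferase, superoxide dismutase or catalase gene passed. Nearest to the threshold was *Gsta4*, which acts on lipid aldehydes, at a log2FC of 0.69 (standard error 0.22, adjusted p = 0.0533), and the lowest log2FC was that of *Sod3*, at -0.97 (standard error 0.37, adjusted p = 0.0888).

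A wider list of 59 tested genes of the same pathways had 11 past the threshold (18.6%), 8 higher and 3 lower with NAC, against the 20.4% of all genes. Higher were *Osgin1*, *Bach1*, *Sqstm1*, *Maff*, *Mafk*, *Slc3a2*, *Esd* and *Fth1*, and lower were *Blvra*, *Txnrd2* and *Gstcd*. *Osgin1*, an oxidative stress induced growth inhibitor and NRF2 target, had a log2FC of 1.54 (standard error 0.22, adjusted p = 0.00510), and *Sqstm1*, the autophagy adaptor that binds KEAP1, 1.13 (standard error 0.19, adjusted p = 0.00868). *Bach1*, a repressor at antioxidant response elements, and *Maff*, a small MAF partner shared by NRF2 and BACH1, had 1.53 and 1.81. *Txnrd2*, the mitochondrial thioredoxin reductase, was at -0.74 (standard error 0.17, adjusted p = 0.0197), opposite in sign to *Txnrd1*.

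The lung-content result leaned on the live heterozygous pup group and on the scaling. The lung-content NAC library of that group had the fewest counts of the 16 libraries (7236906) and the largest Rn45s share (26.2%). Among lung-content libraries it was lowest for 20 of 49 genes (40.8%, against 27.3% of all genes). It was highest for 4 (8.16%, against 23.3% of all genes). Whether depth or Rn45s share had a part in the calls was not tested. Without the live heterozygous pairs of both tissues, which share 1 fit, none of the 6 genes passed (adjusted p from 0.134 to 0.253) and 3 of all genes did. The log2FC of the 6 genes stayed between 0.59 and 2.50. A fit to all 15 libraries of 1 tissue, chosen after seeing the data, brought in the dead null libraries. It also had no block for the pup group, and a term for survival in each tissue instead. That fit kept *Gclc*, *Prdx6* and *Txnrd1* and 179 of all genes, and which of these changes lost the other calls was not tested. Scaled only by library size, the median of all genes was at -0.31, and 658 genes were called higher against 2795 lower. *Txn1* and *Gsr* then lost their call, with log2FC of 0.43 and 0.33, and *Gpx8* and *Sod3* were called lower, while *Gclc*, *Gpx3*, *Prdx6* and *Txnrd1* remained.

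Markers of other cell types also differed between the libraries of these pairs. The summed TMM CPM of 7 hepatocyte markers was 273 and 707, 353 and 734, and 177 and 1130, with 4 of 7 higher in all pairs and *Trf* past the test. At its largest this sum was 0.641% of the liver-content median, and the same share of the liver-content level was 1.57 TMM CPM for *Prdx6* and 0.786 for *Gclc*. The part of hepatocyte RNA in the result was not tested. The sum of 7 neutrophil markers was 98.8 and 178, 137 and 225, and 133 and 244, with 5 of 7 called higher and none at 0 in any lung-content library, and its part in the result was not tested. The 7 lung epithelium markers summed to 13860 and 9594, 13299 and 9716, and 13064 and 15881 with placebo and NAC, and none of them passed. For 5 macrophage markers the sums were 104 and 47.3, 88.0 and 28.6, and 73.5 and 89.7, with *Cd68* called lower, and the part of these cells was not tested either. Erythroid genes summed to 7522 and 10683, 9098 and 12921, and 19281 and 18498, with *Slc4a1* called higher, and endothelial genes to 1223 and 1254, 897 and 1267, and 942 and 1434, with none called.

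**Figure D3:**
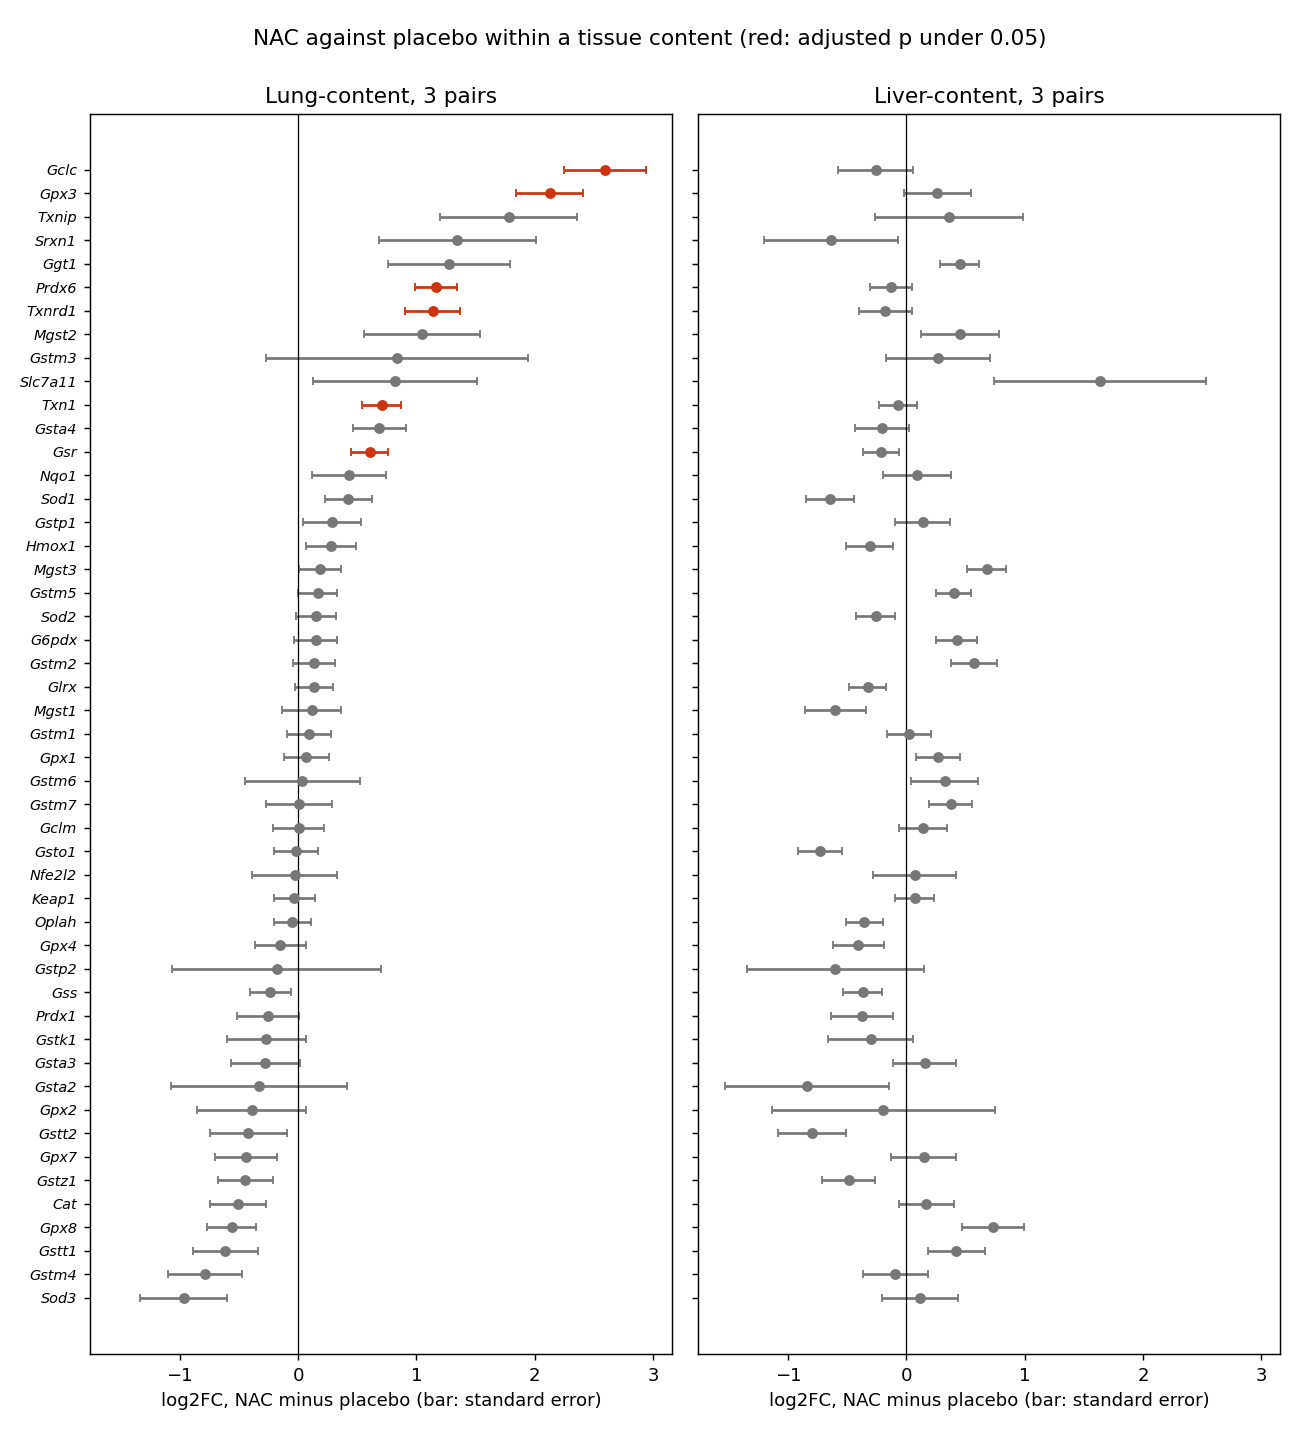
The log2FC of NAC minus placebo for each of the 49 genes, with its standard error as the bar, over 3 pairs of lung-content (left) and 3 pairs of liver-content (right) libraries, with red for an adjusted p under 0.05. Red appears for 6 genes on the left, from *Gclc* at 2.59 to *Gsr* at 0.60, and for none on the right.

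In liver-content libraries none of the 49 genes passed between NAC and placebo, where 0.0774% of all genes did (11 of 14211). Without adjustment 12 of the 49 genes had p under 0.05, as did 1924 of the 14211, and DESeq2 called 1, *Mgst3*, a microsomal transferase, at a log2FC of 0.70. In edgeR the log2FC of *Mgst3* was 0.68 (standard error 0.17, adjusted p = 0.156), and its pairs were 77.0 and 133, 55.7 and 86.6, and 78.6 and 120 TMM CPM. *Gsto1*, an omega class transferase, was lower with NAC in all pairs, at 169 and 72.9, 163 and 114, and 124 and 89.9, with a log2FC of -0.73 (standard error 0.19, adjusted p = 0.161). Of the 49 genes, 11 were higher with NAC in all 3 pairs (22.4%, against 17.2% of all genes) and 10 lower (20.4%, against 17.6%). *Gclc*, *Txnrd1* and *Gsr*, called higher in lung, were among those 10. The summed erythroid, neutrophil and proliferation markers were higher with NAC in all 3 liver-content pairs, with erythroid sums of 29581 and 73839, 11260 and 51575, and 58199 and 66648 TMM CPM and neutrophil sums of 2687 and 4993, 2644 and 3911, and 3872 and 4565, and their part was not tested.

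The difference of the NAC effect between the tissues was tested directly. It was lower in liver than in lung for *Gclc* by 2.85 on the log2 scale (log2FC difference -2.85, standard error 0.47, adjusted p = 0.0220), for *Gpx3* (-1.86, standard error 0.40, adjusted p = 0.0365) and for *Prdx6* (-1.29, standard error 0.25, adjusted p = 0.0297), 3 of 49 genes (6.12%) where 4.23% of all genes passed and 2.21% passed with a lower effect in liver. *Txnrd1* missed the threshold at -1.31 (standard error 0.32, adjusted p = 0.0526), and so did *Txn1* and *Gsr*. None of the 3 passed without the live heterozygous pairs, with adjusted p from 0.263 to 0.327, or with all 15 libraries, with 0.0599 to 0.342. *Prdx6* was also lost when only library size was used for scaling (-1.01, adjusted p = 0.0537). In the wider list 4 genes differed, *Osgin1*, *Bach1* and *Sqstm1* with a lower effect in liver and *Txnrd2* with a higher one.

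A single library held many of the highest values. The lung-content NAC library of dead heterozygous pups, which was labelled liver, was the highest of 7 for 23 of 49 genes (46.9%), where 15.3% of all genes peaked in it, and for 23 of 59 genes of the wider list. *Srxn1*, sulfiredoxin, which repairs overoxidised peroxiredoxins, had 9.16, 9.33, 9.80, 10.3, 11.2 and 12.3 TMM CPM in the other lung-content libraries and 149 in this one, 12.1 times the next. *Slc7a11* was 2.61 times its next library (11.9 against 4.56), *Gclc* 2.53 times (877 against 347), *Nfe2l2* 2.11 times (226 against 107) and *Txnrd1* 1.60 times (195 against 122). *Gstp1*, at 57.2 against 30.5, *Gclm*, at 34.5 against 22.5, *Hmox1*, at 35.0 against 23.8, and *G6pdx*, at 36.5 against 25.3, were also highest there. *Gpx2*, *Sod3*, *Cat* and *Gsta3* were not at their highest in it. Being 1 library of a pool of 2 experiments, it has no replicate. Without the dead heterozygous pairs of both tissues *Gclc*, *Gpx3*, *Prdx6*, *Txnrd1* and *Txn1* still passed the NAC test in lung, with log2FC from 0.66 to 2.42. *Gsr* did not (0.51, adjusted p = 0.0557), and *Gsta4* higher and *Gstt1*, *Cat* and *Gstm4* lower were added.

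**Figure D4:**
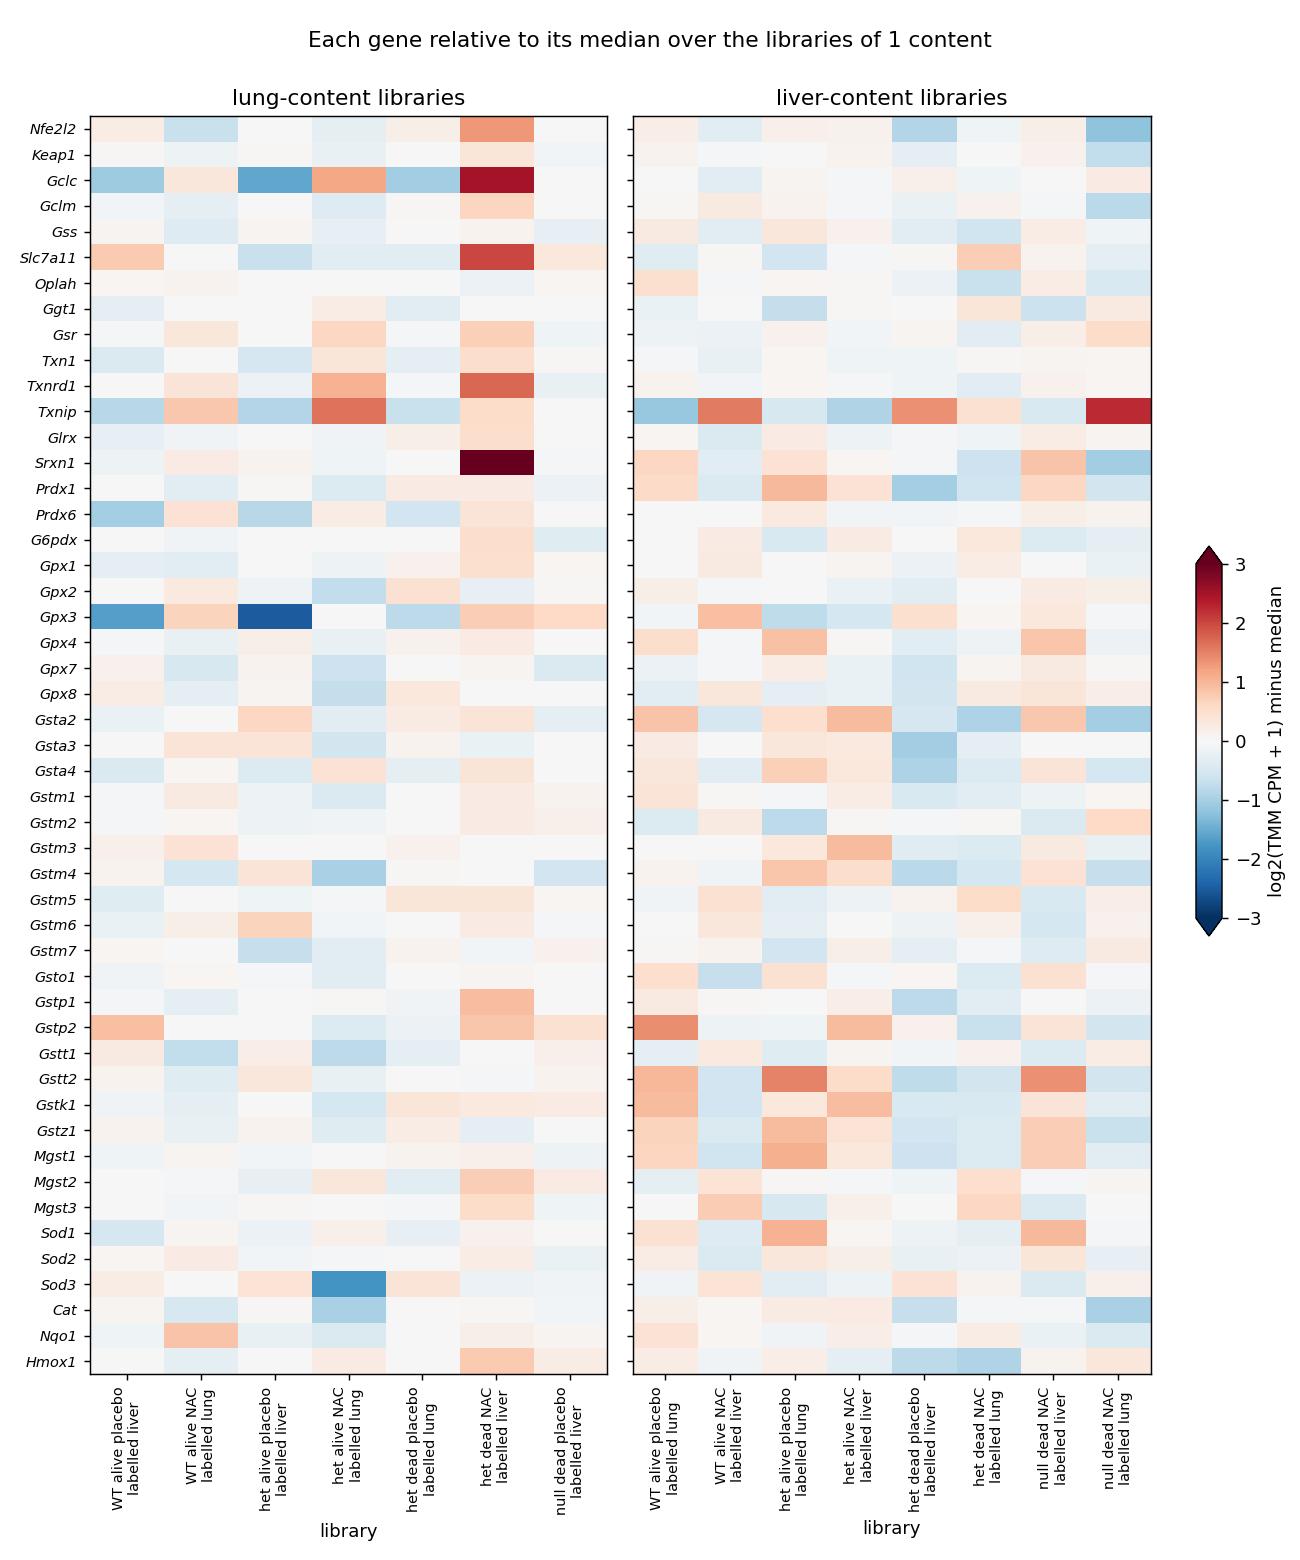
Each of the 49 genes (rows) in each library (columns), as log2(TMM CPM + 1) minus the gene's median over the libraries of the same content, with colours ending at 3 and -3. The column of the dead heterozygous NAC library labelled liver is red for *Srxn1*, *Gclc*, *Slc7a11*, *Txnrd1* and *Nfe2l2*, and *Prdx1*, *Gstz1*, *Mgst1* and *Gstt2* are red in the same liver-content columns.

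The proximal promoters were searched for the core of the antioxidant response element, TGACNNNGC, on both strands, because several genes peaked in the same library. RefSeq promoters on GRCm38.p6, from 250 bases before to 50 after the start of transcription, were at hand for 42 of the 50 genes. The core was found for 12 of these 42 genes (28.6%), against 14.0% of 27025 genes and 13 of 59 genes of the wider list, and a match is no evidence of binding. Of the 6 genes called with NAC in lung 3 had a promoter entry, and *Txnrd1* alone of these held the core, at 1 of its annotated starts. Among genes highest in the library above, *Srxn1*, *Txnrd1*, *Nfe2l2*, *Gclm*, *G6pdx*, *Mgst1* and *Prdx1* held the core. Also highest there, *Slc7a11*, *Gstp1*, *Mgst2*, *Mgst3*, *Gpx1*, *Glrx*, *Keap1*, *Txn1*, *Gstm2*, *Gpx3*, *Gpx4*, *Gss* and *Gsto1* had a promoter entry without it. A link between peak and core was not tested. The windows below are those of *Txnrd1*, *Gclm*, *G6pdx* and *Nfe2l2*, which were highest in the library above, and of *Prdx1*, whose site also overlaps TGANTCA, the AP-1 core. Each is given 5′ to 3′ on the gene's strand with the matched core, or its reverse complement, in capitals.
Txnrd1, chr10:82859099-82859137, plus strand: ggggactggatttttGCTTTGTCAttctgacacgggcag
Gclm, chr3:122245408-122245446, plus strand: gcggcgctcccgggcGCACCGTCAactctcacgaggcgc
G6pdx, chrX:74428914-74428952, minus strand: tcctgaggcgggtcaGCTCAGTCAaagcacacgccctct
Nfe2l2, chr2:75704880-75704913, minus strand: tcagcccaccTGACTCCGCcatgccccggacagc
Prdx1, chr4:116685451-116685489, plus strand: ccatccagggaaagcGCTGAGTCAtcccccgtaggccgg
The matches began 92, 134, 57, 240 and 133 bases before the start site in this order. *Srxn1*, which stood furthest above the other libraries there, held its match 28 bases after the start.

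Dead pups were next compared with live pups, with a term for NAC, in a fit in which 0% of 14175 genes passed in lung. None of the 49 genes passed edgeR's test there, with 6 of them and 284 of all genes at an unadjusted p under 0.05, and DESeq2 called none. In lung 42 of 49 log2FC were above 0, against 7005 of 14175 for all genes, with medians of 0.20 and -0.00. Of the 3 dead lung-content libraries, 1 is the NAC library of dead heterozygous pups described above, and without it the median of the 49 genes was 0.00. The largest log2FC were those of *Srxn1* at 1.71 (standard error 0.68), *Gpx3* at 1.46 (standard error 0.51) and *Gclc* at 1.21 (standard error 0.28), each with an adjusted p of 1.00 in edgeR. Placebo levels of *Gpx3* in lung were 143 and 79.1 TMM CPM in live pups and 262 and 689 in dead pups. For *Gclc* they were 73.0 and 51.3 against 73.7 and 154. In liver none of the genes passed in edgeR or DESeq2 (5 at an unadjusted p under 0.05, and 1281 of all genes), where 0.134% of all genes did, and 15 of 49 log2FC were above 0, against 7020 of 14175, with medians of -0.15 and -0.00. *Cat* had the lowest p in liver, at -0.61 (standard error 0.25, adjusted p = 0.540), with 637 to 727 TMM CPM in live and 309 to 589 in dead pups. No gene of the list differed between the tissues in this effect with either tool (8 at an unadjusted p under 0.05, and 666 of all genes), where 0.00705% of all genes did.

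Genotype was compared within live and within dead pups. Between live heterozygous and live WT pups none of the 49 genes passed edgeR's test in either tissue, nor did any of 14175 genes (0%), DESeq2 called none of the list, and at an unadjusted p under 0.05 there was 1 in lung, *Gstm3*, and there were 2 in liver, *Gpx3* and *Mgst3*, among 190 and 405 of all genes. *Gpx3* in liver was at 30.5 and 60.3 TMM CPM in WT pups and at 18.6 and 22 in live heterozygous pups, a log2FC of -1.13 (standard error 0.36, adjusted p = 0.989). Between dead null and dead heterozygous pups 0% of all genes and none of the list passed in edgeR, with 2 at an unadjusted p under 0.05 in lung and 11 in liver, among 846 and 1879 of all genes. The dead null group of lung-content is 1 library, which is assumed to vary like the other groups. In lung these were *Gpx3*, at 1.66 (standard error 0.43, adjusted p = 0.565), and *Prdx6*, at 0.67 (standard error 0.28, adjusted p = 0.813). *Hmox1* in liver had 199 and 234 in the null libraries and 108 and 99.2 in the dead heterozygous ones, and a log2FC of 1.22 (standard error 0.28, adjusted p = 0.122). DESeq2 called 1 gene of the list in the liver comparison, and its counts over all genes are given in the last section. Leaving out the null NAC library labelled lung leaves 1 library in the liver-content null group. The counts of that fit are given in the last section beside those of all genes. Spread among liver-content libraries was large for another set of genes: *Prdx1* ran from 354 to 1411, *Gstt2* from 28.0 to 136, *Mgst1* from 363 to 1178 and *Gstz1* from 171 to 524, and the same 3 libraries, live WT placebo, live heterozygous placebo and dead null NAC labelled liver, held the highest values of each.

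As labelled, NAC and placebo were compared with 1 library each, so there is no test, and a gene is counted where its log2FC reached 1 or -1. In the libraries labelled live lung, 7 of 49 genes were higher with NAC and 32 lower in WT (56% of all genes past this fold in either direction), and 6 and 31 of 47 in heterozygous pups (60.4%). Labelled dead lung gave 26 higher and 6 lower of 46 in heterozygous (51.3%) and 21 and 7 of 47 in null pups (47%). Among libraries labelled liver the numbers were 27 and 7 of 47 in WT (50%) and 34 and 6 of 48 in heterozygous pups that lived (50.4%), 14 and 18 of 48 in heterozygous pups that died (52%), and 33 and 7 of 49 in null pups (55.9%). Scaling by library size alone made these 14 and 11, 21 and 8, 16 and 14, and 27 and 7 for liver, and 9 and 25, 6 and 30, 15 and 9, and 11 and 11 for lung, in the same order. In each of the 8 pairs the NAC and the placebo library differed in measured tissue content, with the mixed library as placebo in 1 of them. *Gclm*, which was higher in liver-content libraries, had log2FC of -3.26 and -3.43 in live WT and live heterozygous lung and 3.28 and 2.88 in the same pups' liver, and *Gpx3*, which was higher in lung-content libraries, 4.56 and 4.61 against -1.24 and -1.85. *Gclc*, for which the tissues overlapped, was higher with NAC in 7 of the 8 labelled pairs, at 0.40 to 2.68, and at -0.35 in dead null liver.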

How the data were processed

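RNA from lung and liver of newborn pups was sequenced on poly(A)-selected, stranded libraries, 16 in all. As deposited, the table holds estimated counts per gene symbol, which the authors made with the Omicsoft Sequence Aligner against an Ensembl GRCm38 index, keeping unique mappings; of the values, 6.5 to 8.24% per library were not whole. R 4.0.3, edgeR 3.30.3 and mm10 stand in the submitters' processing notes, and the annotation release and the use of strand in counting are not given in the sources used here. The counts were not normalized.

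Estimated counts were rounded to whole numbers, since whole counts had been assumed, and scaled by TMM factors (0.715 to 1.60) over the 16 libraries. Libraries were sorted by raw CPM, as lung-content with *Sftpc* of at least 1000 and *Alb* under 1000, as liver-content with *Alb* of at least 50000, and otherwise as mixed. Totals of 7236906 to 16107764 counts set the precision. No pair of libraries of 1 content agreed within sampling noise (lowest chi-square per degree of freedom 12.8), so none was taken as deposited more than 1 time.

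edgeR 4.0.16 in R 4.3.3 (quasi-likelihood F test, prior count 0.125) was fitted to all genes with a mean of at least 1 raw CPM, with Benjamini-Hochberg adjustment over all of them at 0.05. The standard error is the log2FC divided by the square root of F. NAC was tested in 12 libraries with 1 intercept per pup group and content (4 residual degrees of freedom), survival in 15 libraries with 9, and genotype in 15 with 5. The libraries are the replicates, each a pool, so p-values measure the spread between pools. Labelled pairs have 1 library a side and a log2FC from edgeR's exact test at a dispersion of 0.04, counted at 1 or more in size. Gene positions are from GENCODE vM21 and promoters from RefSeq, both on GRCm38. The scripts were tested on simulated data. Alternatives were DESeq2 1.42.0, other scalings and filters, no block, the mixed library as liver and each pup group (in both tissues) or library left out.

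The members and the gene lists were chosen with earlier results of these data known. Values in each library are given for genes past the threshold, for *Nfe2l2*, *Keap1*, *Gclc*, *Gclm*, *Slc7a11*, *Nqo1* and *Hmox1*, and for the gene of each role with the largest ratio between contents. Of the wider list at most 5 genes past the threshold have values. Other genes were named after their values were seen.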

Additional observations from a re-analysis of the deposited data

Results flagged for a closer look

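In 12 of 100 groups of 1 gene in the libraries of 1 content, the highest or lowest library stood apart from the others by Dixon's test. Chance gives about 1 in 20 for libraries of 1 kind, but these libraries differ by treatment, genotype and survival. All genes were not put to this test, so 12 of 100 has no background here. Of the 12, 7 came from the lung-content NAC library of dead heterozygous pups, labelled liver. There *Srxn1* was 149 TMM CPM, *Gstp1* 57.2, *G6pdx* 36.5, *Gclm* 34.5, *Mgst3* 20.2 and *Gsta1* 1.64, each the highest of 7 libraries, and *Oplah* was the lowest at 34.1. *Gstm3* was highest in the lung-content NAC library of WT pups at 0.355, and *Sod3* lowest in that of live heterozygous pups at 2.09. In liver-content libraries *Gclm* at 94.6 and *Keap1* at 32.5 were lowest in the dead null NAC library labelled lung, and *Gsta3* at 162 in the dead heterozygous placebo library.

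The NAC effect in liver minus that in lung was -2.85 on the log2 scale for *Gclc*, -1.86 for *Gpx3* and -1.29 for *Prdx6*, by edgeR's test of the difference itself.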

How the results depend on the processing

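No gene of the list past the threshold in the main fit changed the sign of its log2FC under the alternatives run. Signs of the other genes were not compared. The balance of counts did move with the scaling. Liver above against lung above over all genes was 3731 to 3343 with TMM, 3470 to 3556 with relative log expression factors and 1842 to 5215 with library size alone, NAC calls in lung higher against lower were 1495 against 1404 with TMM and 658 against 2795 with library size alone, and the labelled dead heterozygous liver pair had 14 against 18 and 16 against 14. Of the list, the NAC effect in lung-content libraries was past the threshold for 0 to 9 genes when 1 pup group was left out in both tissues (0 without live heterozygous, 9 without dead heterozygous pups), against 3 to 2940 of all genes. It was past the threshold for 3 and 179 with all 15 libraries, an alternative chosen after seeing the data, with a survival term in place of the block.

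In liver-content libraries the NAC count over all genes was 3 with relative log expression factors, 0 with library size alone, without the block and with all libraries, 67 with no filter, 2 at a mean CPM of at least 5 and 314 with DESeq2, which called 1 gene of the list. Leaving out a pup group gave 0 to 1 of the list and 0 to 313 of all genes. The difference between tissues was called for 8 of the list and 1246 of all genes with DESeq2, for 0 and 0 with all libraries, and for 0 to 6 and 0 to 468 with a pup group left out.

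Over all genes, DESeq2 gave 65 for dead against live pups in liver, 7 for its difference between tissues, 29 and 1 for live heterozygous against WT in lung and liver, and 46 and 360 for null against heterozygous. For the last it called 1 of the list. Its lung test of live heterozygous against WT kept 12 of the 49 genes after its own filter. With the mixed library as liver the dead against live count was 2, its difference 0 and the null liver count 35, and with no filter the last was 37. Leaving out 1 library gave 1 to 265 for dead against live in liver (265 without the dead null NAC library labelled liver), 0 to 2 for its difference, 0 to 1 for null in lung, and 0 to 1165, with 0 to 9 of the list, for null in liver (1165 and 9 without the null NAC library labelled lung). The causes of these shifts were not tested.

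No paired analysis was possible by replicate number because the labels give none, with 1 library per pup group, treatment and tissue. The NAC test instead pairs libraries by pup group, as a block. Without that block *Gclc*, *Gpx3*, *Prdx6*, *Txnrd1*, *Txn1* and *Gsr* were again the genes of the list called in lung. For the difference between tissues *Gclc*, *Prdx6*, *Txnrd1* and *Gsr* were called, and *Gpx3* did not pass (-1.70, adjusted p = 0.135). How many of all genes passed without the block is not given here.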
